A study of Arabidopsis thaliana with 6 samples.

Results

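The 10 genes described here, CESA1 to CESA10, encode the cellulose synthase catalytic subunits of Arabidopsis thaliana. They were taken by locus from a table of read counts for 33602 genes, and all 10 were listed in it. Counts came from 6 polyA RNA-seq libraries of floral abscission zone cells at flower stage 16, the layers between which petals, sepals and stamens detach. The 3 REC libraries hold residuum cells, which remain on the receptacle, and the 3 SEC libraries hold secession cells, which leave with the separated organs. All plants carried the reporter proQRT2::nlsGFP-GUS, so both groups share 1 genotype, and cells were protoplasted and sorted by fluorescence driven from the promoter of the polygalacturonase gene QRT2. Nothing in the labels says whether each library stems from its own plants or its own sort, and p-values therefore cover the variation among these 6 samples alone, part or all of which may be technical.

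Cellulose is made at the plasma membrane by rosette complexes that thread glucan chains out of the cell. A primary wall complex needs a subunit at the CESA1 position (CESA1, or its close relative CESA10), a subunit at the CESA3 position, and a subunit of the CESA6 type (CESA6, CESA2, CESA5 or CESA9), the last being partly interchangeable. A secondary wall complex, known from xylem and fibres, is built from CESA4, CESA7 and CESA8, mutants of which have collapsed xylem. Each subunit carries the catalytic motif QxxRW, glutamine, any pair of residues, arginine and tryptophan.

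Reads can be assigned to a member only where its sequence differs from those of its relatives, and the coding stretch around the catalytic motif shows how far the closest members do. The stretches below are 51 bases of coding strand from the RefSeq annotation of TAIR10.1, read 5′ to 3′, with the 15 bases that encode QxxRW in capitals.
CESA1: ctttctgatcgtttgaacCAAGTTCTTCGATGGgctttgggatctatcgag
CESA10: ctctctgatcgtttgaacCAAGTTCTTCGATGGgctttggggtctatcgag
CESA3: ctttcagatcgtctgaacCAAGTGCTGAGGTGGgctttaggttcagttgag
CESA2: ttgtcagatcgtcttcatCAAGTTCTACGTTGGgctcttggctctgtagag
CESA9: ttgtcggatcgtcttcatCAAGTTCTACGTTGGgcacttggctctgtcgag
CESA5: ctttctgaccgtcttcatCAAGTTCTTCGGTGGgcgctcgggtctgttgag
CESA6: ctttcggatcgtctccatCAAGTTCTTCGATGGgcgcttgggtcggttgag
CESA1 and CESA10 differed at 2 of these 51 bases, CESA2 and CESA9 at 3, CESA5 and CESA6 at 6, and CESA1 and CESA3 at 11. Over the whole coding sequence, identity was 85.7% for CESA5 and CESA6, 84.5% for CESA2 and CESA9, 83.9% for CESA1 and CESA10 and 69.6% for CESA1 and CESA3. No stretch of 50 exonic bases had an exact copy elsewhere in the genome, except for 1 of 50 bases that CESA5 and CESA6 share, which is 1.21% of the exon bases of CESA5. Exact stretches of 30 bases with a copy elsewhere covered at most 5.81% of the exon bases of a member (CESA9). The read length is not given in the sources used here.

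Each library held between 13222538 and 17192864 counts in genes. The abscission zone markers QRT2, IDA, HAE, HSL2, ADPG1 and ADPG2 summed to 208 to 508 CPM in REC and 7165 to 9117 CPM in SEC. CPM are counts divided by the TMM-scaled library size in units of 1e6. In SEC 5 of the 6 rose and HSL2 fell. IDA and ADPG1 entered the test through their SEC counts alone. Detection of ADPG1, IDA and ADPG2 in REC leaned on replicate 3, while QRT2, HAE and HSL2 were found in every REC library. In REC replicates 1, 2 and 3 ADPG1 had 0, 0 and 6 counts, IDA 0, 6 and 105, and ADPG2 13, 30 and 473. There QRT2 was at 23.4, 22.6 and 79.6 CPM, HAE at 122, 131 and 354 CPM and HSL2 at 62.4, 65.1 and 40.0 CPM. Of 17246 genes tested, 4978 were higher and 5499 lower in SEC (edgeR quasi-likelihood test, adjusted p under 0.05), or 28.9% and 31.9%, and scaling by library size alone gave 3521 higher and 6925 lower. Over all genes the median log2 fold change was -0.07 with TMM and -0.61 with that scaling, and values below are those of TMM unless said otherwise. In bulk samples, fewer cells of a type and less RNA per cell cannot be told apart.

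CESA1, CESA2 and CESA3 fell in SEC, CESA5 and CESA6 were abundant in both groups and passed no test, and the secondary wall members were at or near 0 counts. Of the 10 members, 6 had enough counts to be tested, and 3 of those were called, all lower in SEC. Among all genes tested, 60.8% were called in either direction and 31.9% were lower, so 3 of 6 is near the background and is read as no more than that. The library ranges of the groups were separate, with SEC below, in 4 of the 6, where that held for 36.9% of all genes tested. They were separate with SEC above in 0 of the 6, against 34.6% of all genes tested. The 4 include CESA9, which entered the test through its REC counts alone, so its separation is not read as a result.

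**Figure D1:**
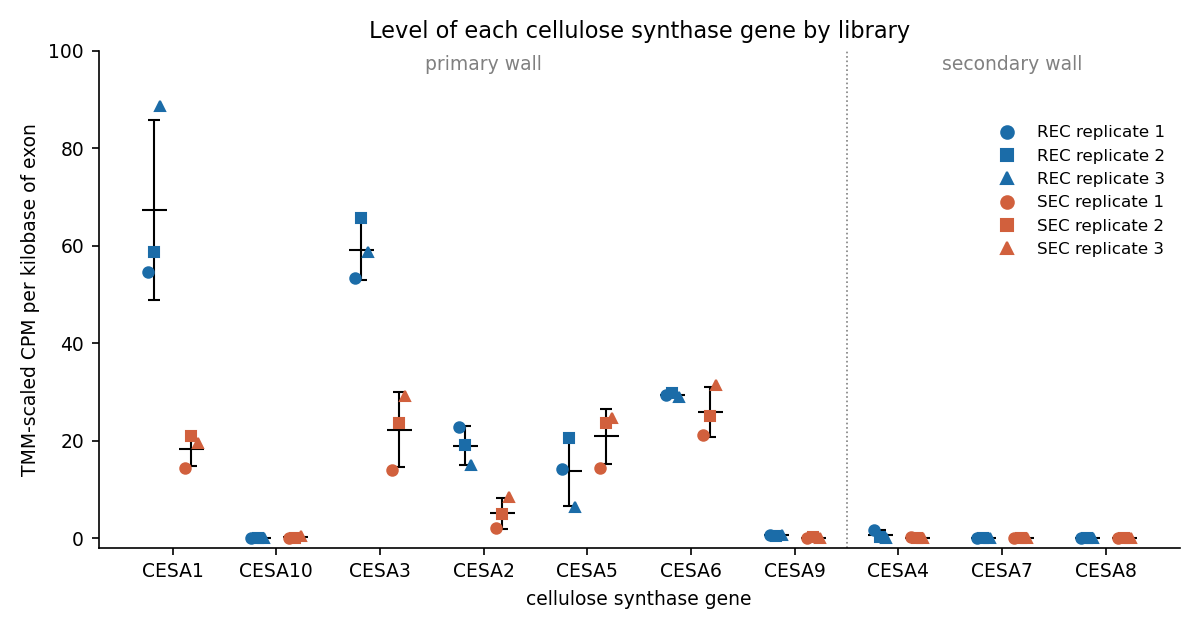
Level of each of the 10 cellulose synthase genes in TMM-scaled CPM per kilobase of exon, with 1 point per library and black bars for the mean ± SD of 3 libraries. CESA1 lies at 54.7 to 88.6 in REC and 14.4 to 20.9 in SEC, CESA6 at 28.9 to 29.8 in REC and 21.2 to 31.4 in SEC, and CESA10, CESA9 and the 3 secondary wall genes lie close to 0.

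CESA1 (AT4G32410; TAIR10 chromosome 4, 15640620 to 15646665, minus strand), the subunit without which embryos and roots cannot make normal primary walls, was at 231, 248 and 374 CPM in REC replicates 1, 2 and 3. In SEC replicates 1, 2 and 3 it was at 60.6, 88.3 and 82.3 CPM. Every SEC library lay below every REC library, and REC replicate 3 was the highest of all. CESA1 was thus 3.69-fold lower in SEC, at a mean of 77.1 ± 14.6 CPM against 284 ± 78.1 CPM (SD, n = 3; log2 -1.88 ± 0.27, SE; adjusted p = 0.000509 by edgeR). Without REC replicate 3 the log2 fold change was -1.63, and over all 6 such omissions it lay between -2.04 and -1.63.

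CESA3 (AT5G05170; chromosome 5, 1530174 to 1535414, minus strand), the other obligate primary wall subunit and a target of the inhibitor isoxaben, was at 204, 251 and 224 CPM in REC replicates 1, 2 and 3. It was at 53.2, 90.1 and 111 CPM in SEC replicates 1, 2 and 3. The groups did not overlap, and the lowest value was that of SEC replicate 1. The means were 226 ± 23.5 and 84.9 ± 29.5 CPM (SD, n = 3), and CESA3 was 2.67-fold lower in SEC (log2 -1.42 ± 0.29, SE; edgeR adjusted p = 0.00316).

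CESA2 (AT4G39350; chromosome 4, 18296797 to 18302192, plus strand), a CESA6-type subunit, was the only one of that type called by edgeR on the TMM scale. It was at 96.8, 81.5 and 63.4 CPM in REC replicates 1, 2 and 3 and at 8.52, 21.3 and 35.4 CPM in SEC replicates 1, 2 and 3. The groups did not overlap, although the SEC libraries spread widely. The mean was 80.6 ± 16.7 CPM in REC and 3.71-fold lower in SEC, at 21.7 ± 13.4 CPM (SD, n = 3; log2 -1.89 ± 0.47, SE; adjusted p = 0.00837 by edgeR). Leaving out 1 library at a time gave values from -2.42 (without SEC replicate 3) to -1.53 (without SEC replicate 1), with adjusted p of 0.00572 to 0.0311.

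CESA6 (AT5G64740; chromosome 5, 25881066 to 25886694, plus strand), the subunit lacking in the procuste mutant, was the steadiest member in REC, at 122, 124 and 120 CPM in replicates 1, 2 and 3. It was at 88.4, 105 and 131 CPM in SEC replicates 1, 2 and 3. The groups overlapped, since SEC replicate 3 lay above every REC library. Its log2 fold change of -0.18 ± 0.21 (SE) had a 95% interval of -0.65 to 0.29 and an edgeR adjusted p of 0.473. The call depended on scaling: with library size alone CESA6 was lower in SEC (log2 -0.73, edgeR adjusted p = 0.0158).

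CESA5 (AT5G09870; chromosome 5, 3073356 to 3078262, plus strand), another CESA6-type subunit with a known part in seed coat mucilage, was at 58.5, 85.2 and 26.4 CPM in REC replicates 1, 2 and 3. In SEC replicates 1, 2 and 3 it was at 59.6, 97.6 and 102 CPM. The groups overlapped, and the lowest library was REC replicate 3, the library with the highest CESA1. Its log2 fold change of 0.61 ± 0.42 (SE) had a 95% interval of -0.35 to 1.56 and an edgeR adjusted p of 0.235, and it was 0.05 with library size alone. A fall of the size measured for CESA1 lies outside that interval.

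CESA9 (AT2G21770; chromosome 2, 9284837 to 9289536, plus strand), a CESA6-type subunit known for the seed coat, was rare. It had 41, 26 and 45 counts in REC replicates 1, 2 and 3 and 4, 8 and 0 in SEC replicates 1, 2 and 3, or 2.19 ± 0.655 and 0.301 ± 0.277 CPM (SD, n = 3). The groups did not overlap, but CESA9 narrowly missed the threshold, with a log2 fold change of -2.80, a 95% interval of -5.38 to -0.22 and an edgeR adjusted p of 0.0591. Without SEC replicate 2 the log2 fold change was -3.60. It entered the test through its REC counts alone. It passed with upper-quartile scaling (adjusted p = 0.0448), library size alone (0.0333), DESeq2 (0.0358) and limma voom (0.0423), and its adjusted p ranged from 0.0333 to 0.154 over all alternatives.

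**Figure D2:**
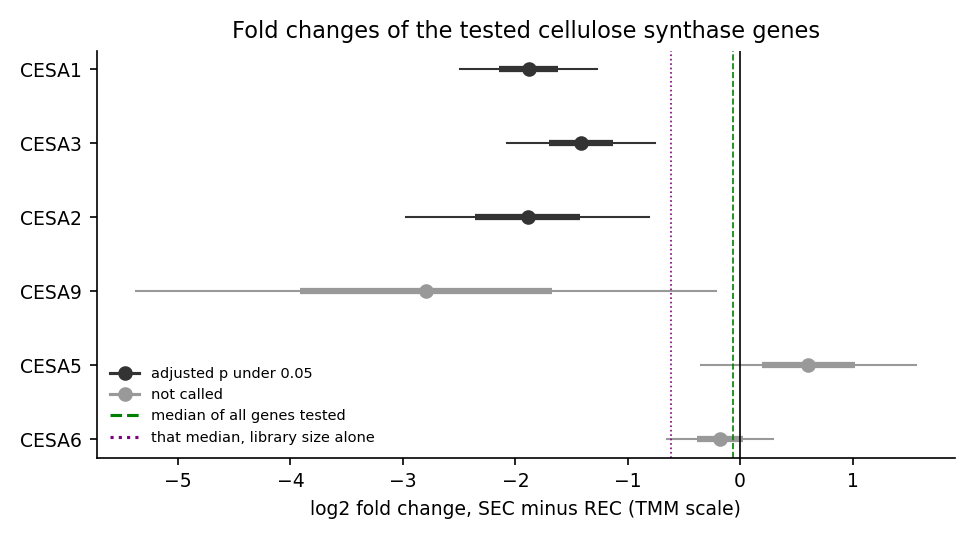
Log2 fold change, SEC minus REC, of the 6 tested members, with thick bars for ± 1 SE and thin lines for the 95% interval. Dashed and dotted lines mark the median of all genes with TMM (-0.07) and with library size alone (-0.61). All intervals are on the TMM scale, so they can be set against the dashed line and not against the dotted one. Those of CESA1, CESA2 and CESA3 lie below the dashed line, and those of CESA5 and CESA6 include 0. That of CESA9 (-5.38 to -0.22) does not include 0, although CESA9 was not called.

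CESA10 (AT2G25540; chromosome 2, 10866822 to 10872077, minus strand), the close relative of CESA1, had 0, 1 and 1 counts in REC replicates 1, 2 and 3 and 0, 0 and 16 in SEC replicates 1, 2 and 3. All its SEC counts came from replicate 3, and it was not tested. The ratio of SEC to REC was 11.3, with an exact 95% counting interval of 2.65 to 101 that takes no account of the spread between libraries. Beside CESA1, which had 886 counts in SEC replicate 3, it was rare in every library.

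The secondary wall members were rare in both groups. CESA8 (AT4G18780; chromosome 4, 10312624 to 10316790, minus strand) had 0 counts in all 6 libraries, which allows a level of up to 0.058 CPM in REC and 0.0818 CPM in SEC (3 counts over a group). CESA7 (AT5G17420; chromosome 5, 5736630 to 5741465, minus strand) had 3, 1 and 1 counts in the REC libraries and 0 in each SEC library. CESA4 (AT5G44030; chromosome 5, 17714645 to 17719723, plus strand) had 109, 20 and 0 counts in REC replicates 1, 2 and 3 and 7, 0 and 0 in SEC replicates 1, 2 and 3. Its counts thus came mainly from REC replicate 1, and none of the 3 genes had enough counts to be tested. The ratio of REC to SEC for CESA4 was 13.1 over all libraries (exact 95% counting interval 6.17 to 33.2) and 2.98 without REC replicate 1.

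Other listed genes of secondary wall cellulose had few counts, apart from CTL2, a partner linked to secondary walls and described below. CTL2 had 0 counts in REC and 1417, 1406 and 702 in SEC replicates 1, 2 and 3. REC replicate 1, with 109 counts of CESA4, had 3 of CESA7 and 0 of CESA8. Of 7 listed NAC and MYB regulators of secondary wall cellulose, NST1, NST2, SND1, VND7 and MYB83 had 0 counts in every library, VND6 had 1 and MYB46 had 2. COBL4, a COBRA-like gene known from secondary walls, had 23, 13 and 3 counts in REC replicates 1, 2 and 3 and 0, 16 and 0 in SEC, and was not called. The xylem markers XCP1, XCP2, LAC4, LAC17, IRX9, IRX10 and TED6 summed to 0 to 1.35 CPM in REC, with 0 in replicate 1, and 3.28 to 5.48 CPM in SEC, and XCP2 and IRX9 were at 0 in all libraries. The neighbouring gene AT5G44020, annotated as an acid phosphatase, lies upstream on the same strand. It overlaps CESA4 by 17 bases in RefSeq, but 308 bases lie between the genes in the deposited coordinates. AT5G44020 was at 26.3, 33.0 and 5.997 CPM in REC replicates 1, 2 and 3, where CESA4 was at 6.58, 1.10 and 0 CPM. In SEC AT5G44020 was at 0, and CESA4 was at 0.621 CPM in replicate 1. The part of AT5G44020 in the CESA4 counts was not tested.

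Per kilobase of exon, which allows levels of different genes to be compared, the order of the members changed between the groups. In REC the order was CESA1 at 67.3 ± 18.5, CESA3 at 59.2 ± 6.15, CESA6 at 29.3 ± 0.456, CESA2 at 19.0 ± 3.94 and CESA5 at 13.7 ± 7.12 (TMM-scaled CPM per kilobase; SD, n = 3). CESA1 and CESA3 overlapped in REC, as did CESA2 and CESA5, while CESA6 stood apart from its neighbours on both sides. In SEC the order was CESA6 at 25.9 ± 5.15, CESA3 at 22.2 ± 7.71, CESA5 at 20.9 ± 5.64 and CESA1 at 18.3 ± 3.45, each overlapping the next, followed by CESA2 at 5.12 ± 3.16, which lay below all of them. The other 5 members were below 1 CPM per kilobase on average in either group.

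Summed over the 7 primary wall members, the level was 189 ± 12.5 CPM per kilobase in REC and 92.6 ± 24.3 in SEC (SD, n = 3). The part of it held by CESA6-type genes was 38.2%, 36.0% and 25.7% in REC replicates 1, 2 and 3 and 57.1%, 54.8% and 56.8% in SEC replicates 1, 2 and 3. CESA1 with CESA10 held 30.2% to 44.7% in REC and 17.6% to 21.8% in SEC, and CESA3 held 29.6% to 33.8% and 21.1% to 25.7%. In REC replicates 1 and 2 each of the 3 positions held 30.2% to 38.2%, and in every SEC library CESA6-type transcripts outnumbered those of the other positions together. The summed level of the CESA6-type genes was 62.6 ± 10.2 CPM per kilobase in REC and 52.0 ± 13.4 in SEC (SD, n = 3). Its library ranges overlapped between the groups, so the larger share in SEC was not a larger level. Among the CESA6-type genes, CESA2 held 27.4% to 34.1% in REC and 5.32% to 12.9% in SEC, while CESA5 held 12.5% to 29.4% in REC and 38.2% to 43.8% in SEC. CESA6 itself held 42.6% to 56.8% and 46.6% to 56.2%. These groupings by position were set with the values known and were not tested.

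**Figure D3:**
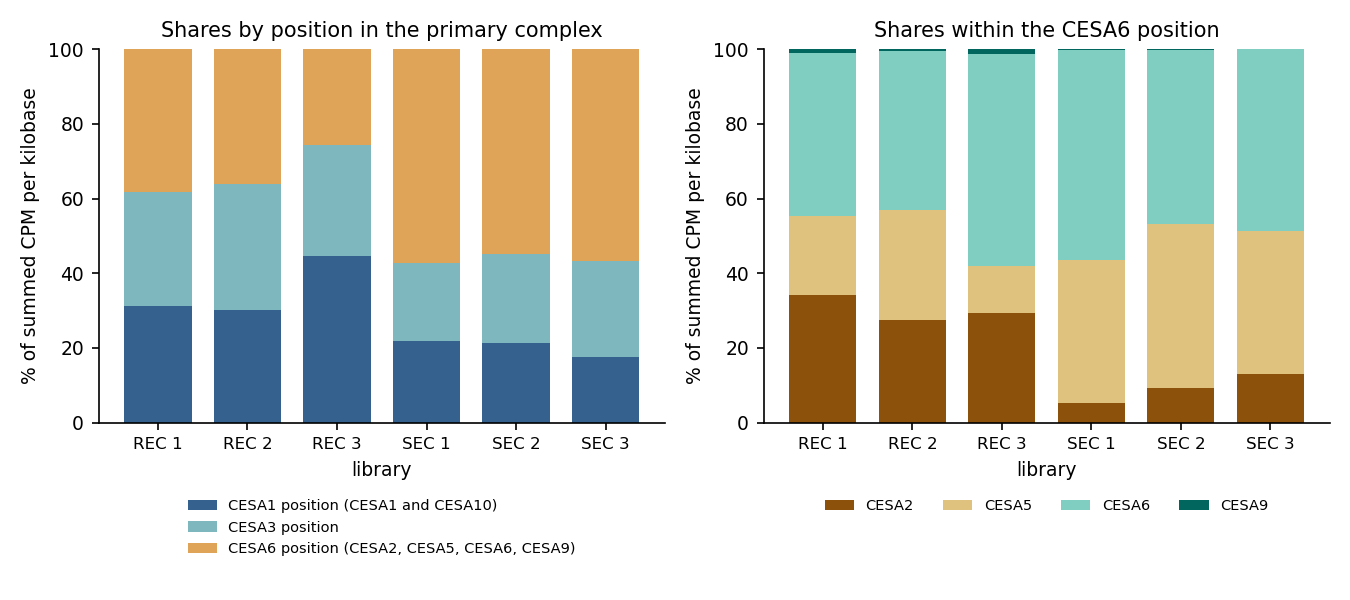
Left, share of the summed primary wall level per kilobase held by each position of the complex in each library. Right, share of each gene within the CESA6 position, where CESA2 holds 27.4% to 34.1% in REC and 5.32% to 12.9% in SEC.

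Ratios between members of 1 library do not depend on how libraries are scaled, and they were compared for the 10 pairs among CESA1, CESA2, CESA3, CESA5 and CESA6. In 6 pairs the groups were separate, namely each of CESA1, CESA2 and CESA3 against each of CESA5 and CESA6. Each of these 6 gave p = 0.1 in a two-sided exact permutation test, the smallest that 3 against 3 libraries can give. The adjusted p of that test was 0.167 over the 10 pairs, so this design cannot reach 0.05. These pairs set the called members against members not called, so they restate the same counts, and pairs that share a gene are not independent. Of single genes tested, 36.9% were separate with SEC below and 34.6% with SEC above. The share among pairs of all genes is not given here.

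CESA1 was 3.87, 2.85 and 13.9 times as abundant per kilobase as CESA5 in REC replicates 1, 2 and 3 and 0.998, 0.887 and 0.791 times as abundant in SEC replicates 1, 2 and 3. The large value of REC replicate 3 combines the highest CESA1 with the lowest CESA5, and the difference in log2 ratio, SEC minus REC, was -2.59 with it and -1.90 without it. CESA3 was 1.82, 2.20 and 2.03 times as abundant as CESA6 in the REC libraries and 0.656, 0.939 and 0.928 times in the SEC libraries. The difference in log2 ratio was -1.28 and stayed between -1.37 and -1.11 with any 1 library left out. CESA2 stood to CESA5 at 1.61, 0.932 and 2.34 in REC and 0.140, 0.213 and 0.338 in SEC, a difference of -2.81.

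The 3 genes that fell kept ratios to each other whose ranges overlapped between the groups, as did CESA5 to CESA6. CESA1 stood at 1.03, 0.896 and 1.51 times CESA3 per kilobase in REC and 1.03, 0.888 and 0.669 times in SEC (difference in log2 ratio -0.39, exact p = 0.3). The differences were 0.22 for CESA1 to CESA2 (exact p = 0.8), -0.62 for CESA2 to CESA3 and 0.92 for CESA5 to CESA6 (both exact p = 0.2). With 3 libraries a group, these p-values do not show that the ratios were equal.

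**Figure D4:**
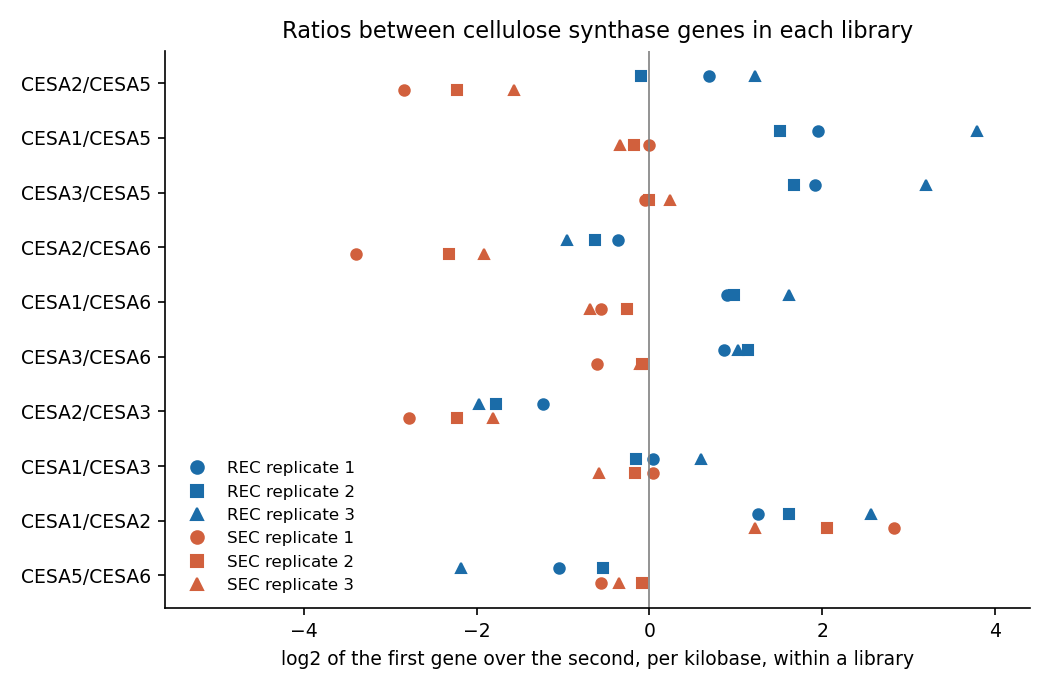
Log2 ratio of the first gene over the second per kilobase in each library, for the 10 pairs, ordered by the difference between groups. REC and SEC points are separate in the upper 6 pairs and overlap in the lower 4.

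Genes with a profile like that of CESA1 or CESA3 were ranked over the 6 libraries, as a description in which the difference between REC and SEC carries much weight. Likeness was taken as the root mean square difference between log2 CPM profiles centred on their means, among genes with a mean of at least 10 CPM. CESA3 ranked 336 of 10848 genes in likeness to CESA1, with a difference of 0.350, and CESA2 ranked 1661, CESA6 3064 and CESA5 6342. The genes nearest to CESA1 were AT1G74910 (0.101), annotated in the deposited table as an ADP-glucose pyrophosphorylase family protein, AT3G15710 (0.121), annotated as a peptidase of the S24/S26 families, and BBETA (0.125), a regulatory subunit of protein phosphatase 2A. Those nearest to CESA3 were AT2G44230 (0.120), of unknown function, the aldo-keto reductase gene AKR4C11 (0.154) and AT3G15410 (0.155), a leucine-rich repeat gene.

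Genes whose products work with the cellulose synthase complex moved in both directions. Of 17 listed partners 15 were tested, of which 7 fell, 4 rose and 4 did not pass, where 31.9% of all genes tested fell and 28.9% rose. Their median was -1.38 on the log2 scale, where that of all genes tested was -0.07. CTL1 (AT1G05850), a chitinase-like protein needed for normal cellulose deposition in primary walls, fell from 270 ± 35.9 to 52.7 ± 10.8 CPM (SD, n = 3; log2 -2.35 ± 0.23, SE; adjusted p by edgeR = 9.37e-05). FRA1 (AT5G47820), a kinesin that acts in wall deposition, fell to 5.46 ± 0.961 CPM in SEC from 49.2 ± 14.6 CPM in REC (SD, n = 3; adjusted p = 0.000108 by edgeR). Also lower, and named after their values were seen, were CSI1 (log2 -2.96), which links the complex to microtubules, the endoglucanase gene KOR1 (-1.43) and COB (-3.07), a membrane-anchored protein of cellulose orientation. CTL2 (AT3G16920), the relative of CTL1 linked to secondary walls, went the other way, with 0 counts in REC and 126, 96.1 and 65.2 CPM in SEC replicates 1, 2 and 3, at least 1657-fold higher. CTL2 entered the test through its SEC counts alone, so its place among the 4 that rose is not read as a result. KOB1 (AT3G08550), a membrane protein needed for cellulose synthesis, rose from 25.1 ± 3.78 to 64.9 ± 3.28 CPM (log2 1.37 with an SE of 0.22; edgeR adjusted p = 0.000979). Also higher, and likewise named after their values were seen, were CSI2 (AT1G44120; log2 1.56, edgeR adjusted p = 0.0124) and STL1 (AT2G41770; log2 2.29, edgeR adjusted p = 0.0259). With library size alone 2 partners in place of 4 were called higher, namely CTL2 and KOB1 (edgeR adjusted p = 0.0108 for KOB1). CSI2 and STL1 lost their call there, and 7 partners were lower as before.

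The genes that supply UDP-glucose, the substrate of the complex, were called in both directions. Of the 5 tested, 2 were higher, 2 lower and 1 not called. Among all genes tested 28.9% were higher and 31.9% lower, so nothing is read from these counts. The sucrose synthase genes SUS1 (AT5G20830) and SUS3 (AT4G02280), which make UDP-glucose from sucrose, were higher in SEC. SUS1 rose from 391 ± 50.4 to 1962 ± 154 CPM (SD, n = 3; adjusted p by edgeR = 5.15e-05), and SUS3 from 29.7 ± 6.99 to 124 ± 15.6 CPM. The UDP-glucose pyrophosphorylase genes UGP1 (AT3G03250) and UGP2 (AT5G17310), which make it from glucose-1-phosphate, were lower. UGP1 fell from 255 ± 75.8 to 15.1 ± 4.38 CPM (log2 -4.07 with an SE of 0.34; adjusted p by edgeR = 3.99e-05) and UGP2 from 49.0 ± 3.12 to 3.45 ± 2.01 CPM. The invertase gene CINV1 was not called. The other 5 of 10 listed genes, SUS2, SUS4, SUS5, SUS6 and CINV2, were too rare to test.

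In the cellulose synthase-like superfamily, which holds the closest relatives of the CESA genes, 30 genes were listed, 13 were tested, 5 were higher, 3 were lower and 5 were not called. Calls in 8 of 13 are near the 60.8% of all genes tested, and nothing is read from the count. The products of CSLD genes make glucan chains in tip-growing and dividing cells. Of 6 listed, 3 were tested and all were called higher, where 28.9% of all genes tested were higher. CSLD1 entered the test through its SEC counts alone. Among the untested, CSLD5 went the other way, with 0, 78 and 2 counts in REC replicates 1, 2 and 3 and 0 in SEC. CSLD4 and CSLD6 had 0 counts in every library. CSLD2 (AT5G16910) rose from 33.7 ± 6.55 to 212 ± 96.8 CPM (SD, n = 3; log2 2.66 ± 0.36, SE; edgeR adjusted p = 0.00043) and CSLD3 (AT3G03050), needed for root hairs, from 52.8 ± 10.1 to 152 ± 44.6 CPM (log2 1.52 with an SE of 0.28; adjusted p by edgeR = 0.00198). CSLD1, named after its values were seen, had 10 counts in REC, all in replicate 1, and 152, 253 and 154 in the SEC libraries. Counts of CSLD2 and CSLD3 were higher in SEC under every scaling tried.

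Other CSL families were mixed. CSLA9 (AT5G03760), a mannan synthase gene, had 1135, 894 and 531 counts in REC replicates 1, 2 and 3 and 1, 0 and 0 in SEC, a ratio of 1816 (exact 95% counting interval 326 to 71746). Leaving out SEC replicate 1 removed its last SEC count, and the fall was then at least 419-fold. CSLA2, of the same family, was at a mean of 101 CPM in both groups and was not called. Of the CSLC genes, which make the xyloglucan backbone, CSLC6 (AT3G07330) rose from 35.4 ± 5.92 to 126 ± 56.8 CPM (SD, n = 3; edgeR adjusted p = 0.00208) and CSLC4 (AT3G28180) was lower, at 7.21 ± 1.72 against 23.7 ± 13.6 CPM (edgeR adjusted p = 0.0214). The CSLC4 groups overlapped, and its adjusted p rose past 0.05 when any of 4 libraries was left out (REC replicate 1, 0.0574; REC replicate 2, 0.0778; SEC replicate 1, 0.0508; SEC replicate 2, 0.0723). CSLE1 (AT1G55850) fell from 48.8 ± 13.5 to 12.2 ± 4.65 CPM, and CSLB1 (AT2G32610), with 0 counts in REC, was at 6.12, 3.96 and 1.30 CPM in SEC, at least 66.3-fold higher. CSLB1 entered the test through its SEC counts alone, and CSLA9 through its REC counts alone.

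**Figure D5:**
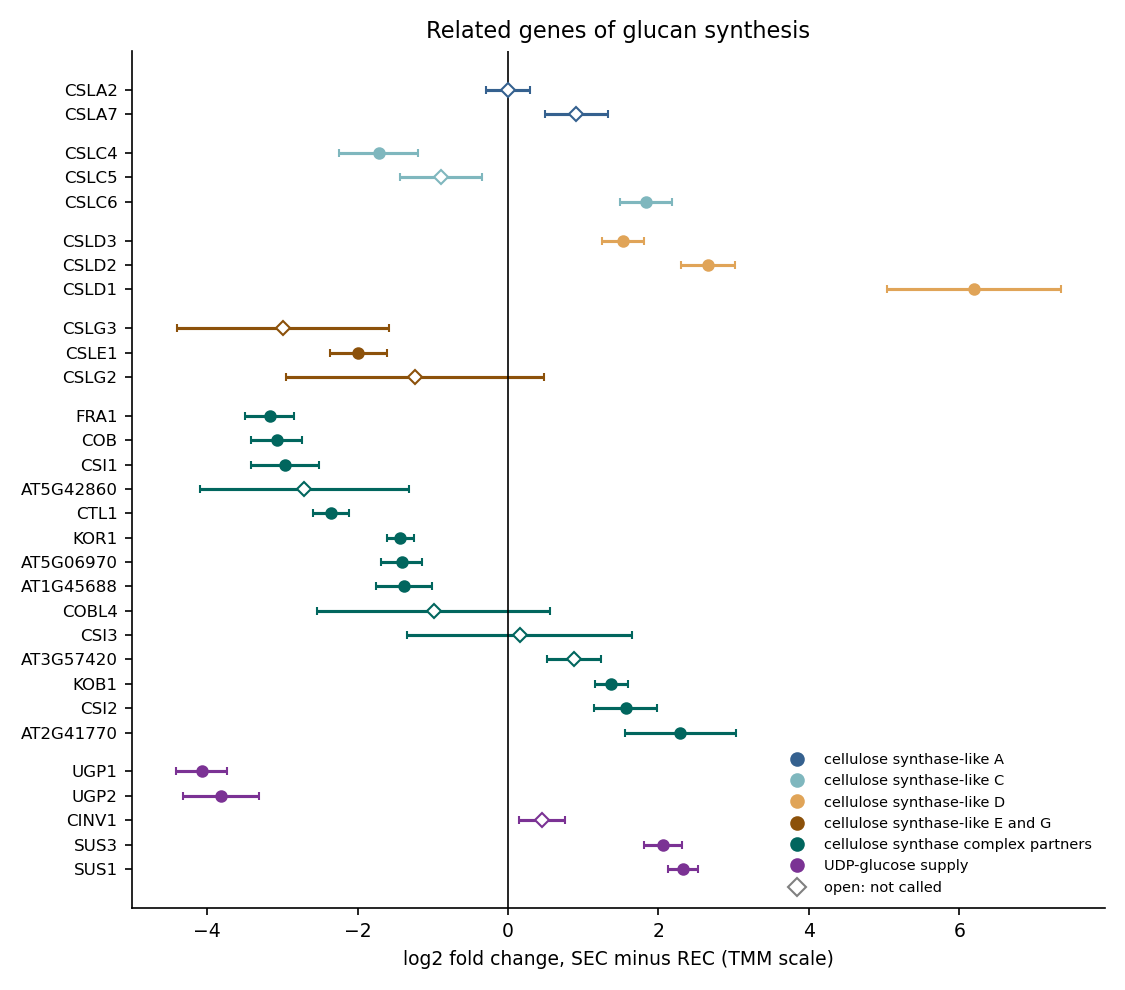
Log2 fold change, SEC minus REC, with ± 1 SE for tested genes of the cellulose synthase-like families, complex partners and UDP-glucose supply, leaving out CSLA9, CSLB1 and CTL2, which had 0 or 1 counts in a group. Filled points passed an adjusted p of 0.05: CSLD1, CSLD2 and CSLD3 lie right of 0, and UGP1 and UGP2 lie near -4.

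Marker lists of other cell types were summed in each library. Summed levels in REC and SEC were 0.882 to 12.6 and 0 to 1.30 CPM for phloem, 0 to 2.29 and 0 to 0.372 CPM for guard cells, 3.15 to 7.12 and 1.86 to 5.67 CPM for pollen, and 0 to 7.95 and 0 to 0.410 CPM for ovule and seed coat. The epidermis list (ATML1, PDF1 and FDH) summed to 28.7 to 46.4 CPM in REC and 0 to 3.91 CPM in SEC. Most of the REC sum was FDH, at 21.2, 28.3 and 43.3 CPM in replicates 1, 2 and 3. FDH and PDF1 were called lower in SEC, but both entered the test through their REC counts alone. In SEC replicates 1, 2 and 3 FDH had 6, 0 and 0 counts and PDF1 had 0 in each. Their direction is therefore not read as a result. ATML1 was not called, at 4.16, 0 and 0.706 CPM in the REC libraries and 3.37, 0 and 0 CPM in SEC. The part of epidermis cells in the fall of CESA1, CESA2 and CESA3 was not tested.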

How the data were processed

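The authors deposited a table of raw counts of reads per gene, with no normalization. The submitters' processing notes name TAIR10 and these tools: HTSeq 0.6.1 (a read counter), TopHat2 2.0.9 (an aligner), Trimmomatic 0.32.3 (a trimmer) and DESeq2. The sources used here give neither an annotation release nor a strand setting. Per the labels' protocols, cDNA was amplified for 18 cycles, so reads are not independent molecules, and intervals and floors cover counting error only. The 5 summary rows of the counter were left out; reads assigned to no gene were 42.8% to 45.9% per library and reads at more than 1 site 6.86% to 11.8%.

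Counts were tested in R 4.3.3 with edgeR 4.0.16 (filterByExpr, TMM, quasi-likelihood F test, Benjamini-Hochberg adjustment over 17246 genes, threshold 0.05); the SE is the log2 fold change divided by the square root of F. The procedure was tested on simulated data. Ratios between members used 0.5 added counts and a two-sided exact permutation test. Exon lengths are unions of RefSeq exons of TAIR10.1; coding sequences were aligned with mafft 7.526. Starts are printed as counted from 1, because 14406 of the table's starts match RefSeq if its own are read as counted from 0, against 134 if not. RefSeq places 28 to 89 exon bases of CESA1, CESA3, CESA4, CESA7 and CESA10 under a gene on the opposite strand, and 562 of CESA8.

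Members and gene lists were chosen with earlier results of these data known. Genes named are all 10 members, up to 2 of each pathway list in each direction by adjusted p, and the 3 genes most like CESA1 and CESA3. Alternatives were other scalings and filters, DESeq2 1.42.0, limma 3.58.1 (voom), a replicate block, a threshold of 0.01 and each library left out.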

Additional observations from a re-analysis of the deposited data

How the results depend on the processing

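CESA1, CESA2 and CESA3 stayed lower in SEC and past the threshold in every alternative run, with log2 fold changes of -2.42 to -1.63, -2.44 to -1.53 and -1.96 to -1.19. The number of members called was 3 in the main run and 5 with library size alone, where CESA6 (-0.73) and CESA9 (-3.31) were added. It was 4 with upper-quartile scaling, DESeq2 and limma voom, where CESA9 was added (-3.04, -2.85 and -2.61). It was 3 in every other alternative. Of 80 alternative values for ratios between members 2 changed sign, both of CESA1 to CESA2 (-0.05 without REC replicate 1, -0.17 without SEC replicate 1; range 0.63 to -0.17). Levels per kilobase moved by more than 1 SD in 10 of 100 values. With the length of the coding sequence they were 87.6 (REC) and 23.7 (SEC) for CESA1, 24.8 (REC) for CESA2, 70.8 (REC) for CESA3, 26.9 (SEC) for CESA5, and 37.6 (REC) and 33.2 (SEC) for CESA6. With library size alone they were 22.9 for CESA2, 71.5 for CESA3 and 35.4 for CESA6 in REC. Of 313 alternative values for the other genes named by rule, 10 lost their call, all of CSLC4 and AKR4C11, and none changed sign. Genes named after their values were seen, among them CSI2 and STL1, are not in that count. Same-numbered libraries of the groups did not deviate together (correlations -0.02, -0.01 and -0.02), and the labels do not pair them. No library correlated best with its own number in the other group. With the replicate number as a block 9515 genes were called in place of 10477, and the same 3 members, and CSLC4 was not called (-1.54, edgeR adjusted p = 0.0757). Depth limits what can be said of CESA4, CESA7, CESA8 and CESA10, which had 129, 5, 0 and 2 counts in REC and 7, 0, 0 and 16 in SEC.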

Other observations

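Several genes of the lists had all or most of their counts in a single library, as CESA10 did with 16 counts in SEC replicate 3 and CESA4 with 109 in REC replicate 1. CSLA10 had 93 counts in REC replicate 2 and 0 elsewhere, and CSLD5 had 78 in REC replicate 2 and 2 in REC replicate 3. In the same library, the ovule gene STK had 80 counts, against 0 elsewhere, and the phloem gene SUC2 had 207, against 16 and 15 in the other REC libraries. Of the guard cell genes, FAMA had 29 counts in REC replicate 2 and 0 elsewhere, while KAT1 had 38 in REC replicate 1, 0 in REC replicate 2 and 4 in SEC replicate 3. These genes were chosen after their values were seen.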
